A study of Homo sapiens with 8 samples.

Results

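The 9 genes described here encode receptor tyrosine kinases that have been linked to Hodgkin lymphoma or to its myeloid-like features: PDGFRA, CSF1R, KIT, FLT3, DDR1, DDR2, EPHB1, MET and MST1R. They were taken by name from the deposited array values, with 1 probe set per gene, and all 9 of 9 had a probe set paired with 1 gene symbol, out of 17958 genes measured in that way. A gene with more than 1 such probe set is represented by the brightest on average over the 8 arrays. The study measured total RNA of 2 established human lymphoma lines: KMH2, derived from Hodgkin lymphoma, and Ramos, derived from Burkitt lymphoma, a tumour of germinal centre B cells. Untreated KMH2 and KMH2 after 24 h of glucosamine had 3 arrays each, and Ramos had 2. Both lines grew in the same serum-supplemented medium, and no further agent, allele or transgene was labelled in any group. No source used here states the glucosamine dose. The Ramos titles read control for both arrays, but the design text describes 1 as treated, so Ramos is used below only as a cell line, with no treatment assigned. Each disease is represented by a single line here.

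Receptor tyrosine kinases are surface proteins that pair when a ligand binds, phosphorylate tyrosines in each other's tails and recruit adaptors that pass the signal to the RAS-ERK, PI3K-AKT, phospholipase C and STAT pathways. PDGFRA, CSF1R, KIT and FLT3 form the class III family with immunoglobulin-like outer domains. DDR1 and DDR2 bind collagen, EPHB1 binds ephrins of the B class on neighbouring cells, and MET and MST1R (RON) bind hepatocyte growth factor and macrophage-stimulating protein. Hodgkin tumour cells are known for carrying several such receptors that normal B cells lack, and their CSF1R transcripts are known to arise in part from a retroviral repeat upstream of the myeloid promoter. Glucosamine is an amino sugar that cells phosphorylate and feed into the hexosamine pathway.

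The values are log2 signals as deposited, so a difference of 1 is a doubling of signal, and array medians lay between 5.62 and 5.68. The cell lines matched their labels on most B-cell and Hodgkin marker genes. The B-cell list had all 6 measured members higher in Ramos, with MS4A1 (CD20) at 3.70 ± 0.14 in KMH2 control (SD, n = 3) and between 10.83 and 11.04 in Ramos, and 4 of the 6 lay under the median of the whole table (5.66) in KMH2 control. Of 7 Hodgkin markers 6 were lower in Ramos, among them TNFRSF8 (CD30) at 8.74 in KMH2 control and at most 6.10 in Ramos. The 1 that was higher in Ramos was CCL22 (2.10, adjusted p = 1.59e-05, limma). Mast cell and endothelial markers lay under the table's median in every group (3 of 3 and 4 of 4 genes). The files gave no detection calls, so signals near or below that median may be background, and folds that reach down to them are compressed. Because nothing states that the Ramos arrays came from separate cultures, p-values of that comparison measure only the spread between these samples. That spread may be technical or may hold a treatment of 1 Ramos array, which cannot be told apart here.

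PDGFRA, CSF1R, DDR2 and DDR1 were higher in KMH2 than in Ramos, and MET gave a bright signal in both lines. EPHB1 and KIT were slightly higher in Ramos, FLT3 and MST1R did not pass the test, and KIT, FLT3 and MST1R stayed under the table's median on all 8 arrays. After glucosamine PDGFRA fell by over 2-fold, CSF1R rose, and MET and DDR1 fell slightly. Tests were limma's, two-sided, with Benjamini-Hochberg adjustment over the 19181 probe sets paired with 1 symbol and a threshold of 0.05. In the glucosamine comparison 1 member was higher, 3 were lower and 5 did not pass, and 25.8% of all probe sets tested passed (11.9% higher, 13.9% lower). Between the lines 4 members were lower in Ramos, 2 were higher and 3 did not pass, beside 43.8% of all probe sets (21.2% lower, 22.7% higher). In bulk RNA, fewer cells of a kind and less RNA per cell cannot be told apart. The members' median difference was 0.08 after glucosamine (0.01 over all probe sets) and -0.47 between the lines (0.06 over all). The 3 treated arrays lay outside the range of the controls in 7 of 9 members, against 40.9% of probe sets, and the Ramos arrays lay outside it in 8 of 9, against 64.1%. With backgrounds this wide, the counts of members are read as description only.

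**Figure D1:**
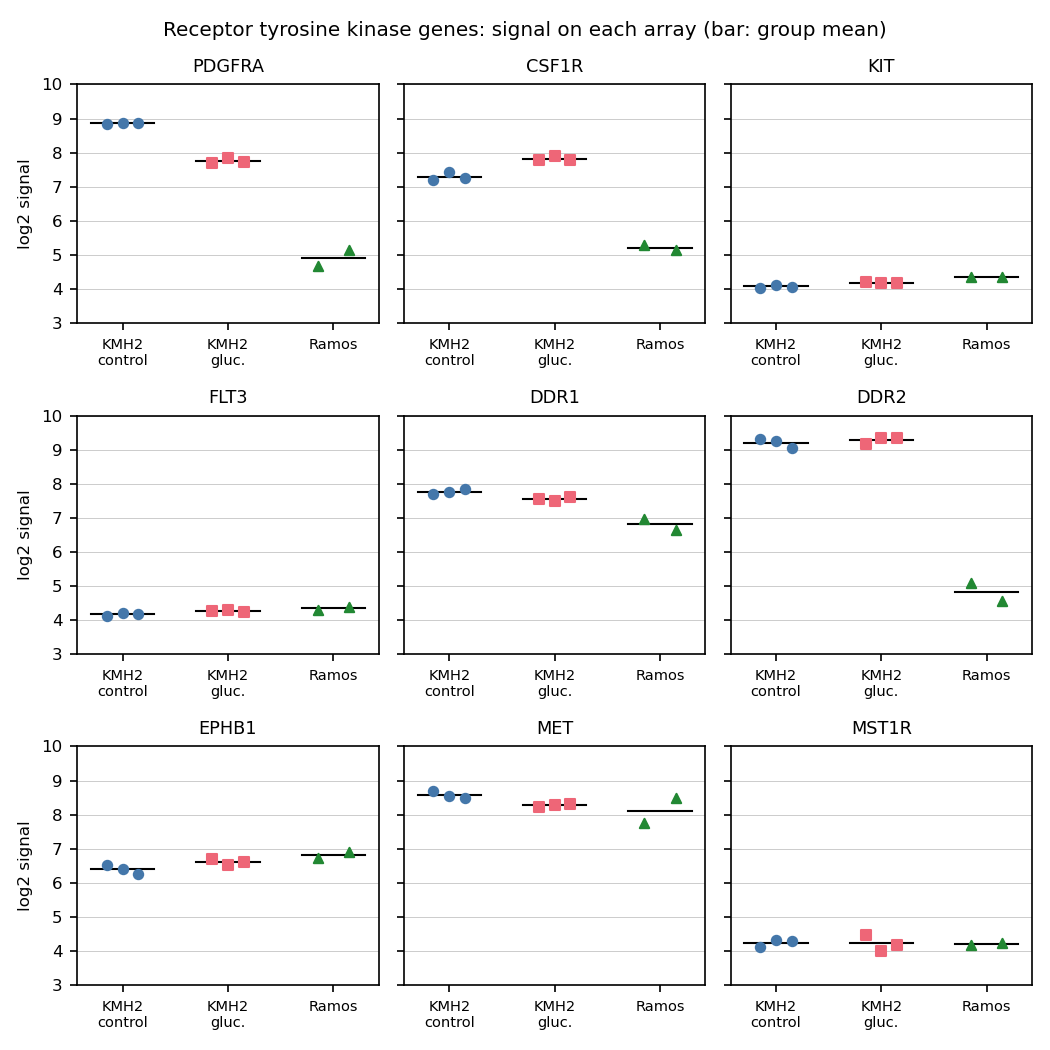
Log2 signal of the 9 receptor genes on each of the 8 arrays, by group (circles, KMH2 control; squares, KMH2 glucosamine; triangles, Ramos), with bars at group means; levels are comparable within a panel, not between genes. PDGFRA falls from about 8.86 to 7.75 after glucosamine and to 4.92 in Ramos, CSF1R rises from 7.29 to 7.82 after glucosamine, DDR2 stands at 9.20 and 9.28 in KMH2, and KIT, FLT3 and MST1R stay between 4.0 and 4.48 on all arrays.

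PDGFRA (probe set 8095080), the receptor of platelet-derived growth factors on mesenchymal cells, measured 8.85, 8.87 and 8.87 in KMH2 control. After glucosamine it measured 7.71, 7.84 and 7.72, and in Ramos 4.68 and 5.15. All treated arrays lay below all controls and the Ramos arrays lay below both, so no groups overlapped. The fall after glucosamine was 1.11 on the log2 scale (-1.11 ± 0.06, SE, 95% confidence interval -1.24 to -0.98, adjusted p = 2.39e-05), a 2.16-fold difference. Called differences of at least 2-fold made up 0.829% of all probe sets in that comparison. Ramos lay lower by a log2 difference of -3.95 ± 0.13 (SE, adjusted p = 6.17e-08), 15.4-fold. Relative to treated KMH2 cells the Ramos difference was smaller, at -2.84. Its profile over the 8 arrays, centred on its own mean, was nearest to those of BATF3 (root mean square distance 0.17), a transcription factor gene, TNFSF10 (0.21), the death ligand TRAIL, and DNAI3 (0.21). In KMH2 control, KMH2 glucosamine and Ramos these nearest genes averaged 9.59, 8.71 and 5.79 (BATF3), 10.51, 9.63 and 6.97 (TNFSF10) and 7.88, 6.98 and 4.43 (DNAI3).

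PDGFRA is also a fibroblast gene, so fibroblast markers were read beside it. Of 9 such markers 1 fell after glucosamine, ACTA2 (-0.43 ± 0.05, SE, adjusted p = 0.000881), and 7 of 9 lay under the table's median in every group. The log2 of their summed signal was 9.34 to 9.39 in KMH2 control, 9.05 to 9.13 after glucosamine and 8.78 to 9.27 in Ramos. Between the lines 1 of the 9 passed, COL1A1, lower in Ramos (-0.36, adjusted p = 0.00438), a call lost with a replicate block (0.156). ACTA2 did not pass there (-0.56, adjusted p = 0.0609), although it did without dim probe sets (0.049) and with array weights (0.0497). The ACTA2 call after glucosamine was lost when all 8 arrays shared the spread (adjusted p = 0.186). Over all probe sets 25.8% passed after glucosamine and 43.8% between the lines. The part of these markers in the PDGFRA result was not tested.

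CSF1R (8115076), the receptor of macrophage colony-stimulating factor, measured 7.19, 7.42 and 7.25 in KMH2 control. It measured 7.79, 7.90 and 7.79 after glucosamine and 5.28 and 5.13 in Ramos. Every treated array was above every control array, and Ramos was below all KMH2 arrays. The rise was 0.54 ± 0.07 (SE, 95% confidence interval 0.37 to 0.70, adjusted p = 0.00117), 1.45-fold, and Ramos differed from KMH2 control by -2.08 ± 0.09 (SE, adjusted p = 4.08e-07), 4.22-fold. PDGFRA and CSF1R, relatives in structure, thus moved in opposite directions under glucosamine although both were higher in KMH2 than in Ramos. The profiles nearest to CSF1R were those of ELOVL4 (distance 0.06), an enzyme of very long chain fatty acids, MITF (0.10), a transcription factor of pigment, mast cell and osteoclast lineages, and DHRS7 (0.11). MITF averaged 7.76 in KMH2 control, 8.11 after glucosamine and 5.57 in Ramos.

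The myeloid markers measured did not rise with CSF1R after glucosamine. Of 8 measured members of that list 0 rose after glucosamine and 1, the monocyte gene CD14, fell (-1.08 ± 0.14, SE, adjusted p = 0.00102). The log2 of their summed signal was 9.02 to 9.15 in control and 8.82 to 8.90 after glucosamine. MPO, the granule peroxidase of myeloid cells, lay at 5.11 in control and 5.20 after glucosamine, under the table's median. Of the 8 markers 5 lay under that median in both KMH2 groups, so a rise in them may not show. Between the lines 2 were higher in Ramos, CD68 (1.10, adjusted p = 1.97e-05) and LYZ (0.64, 4.61e-05). CD14 (-1.96, adjusted p = 4.33e-05) and ITGAM (-1.69, 4.24e-05) were lower, and 4 did not pass. Over all probe sets 25.8% passed after glucosamine and 43.8% between the lines. The part of these markers in the CSF1R result was not tested.

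KIT (8095110), the stem cell factor receptor of mast cells and progenitors, measured 4.04, 4.11 and 4.07 in KMH2 control. It measured 4.21, 4.18 and 4.16 after glucosamine and 4.36 and 4.35 in Ramos. FLT3 (7970737), the receptor of early lymphoid and myeloid progenitors, measured 4.12, 4.19 and 4.17 in KMH2 control, 4.25, 4.29 and 4.23 after glucosamine, and 4.29 and 4.39 in Ramos. In both genes the treated arrays lay just above the controls, by 0.11 (95% confidence interval -0.01 to 0.23, adjusted p = 0.159, limma) and 0.10 (-0.02 to 0.22, adjusted p = 0.205, limma), and neither passed the test. KIT passed between the lines, higher in Ramos by 0.28 ± 0.06 (SE, adjusted p = 0.00548), a call lost with array weights (0.0828) and at the threshold against treated KMH2 cells. FLT3 did not (0.18, adjusted p = 0.0507), although it passed without Ramos replicate 1 (0.0263), with an intensity trend (0.0309) and with the gene-level mean of probe sets (0.0491). At these low signals the differences cannot be read as expression of either receptor.

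DDR2 (7906878), a collagen receptor of mesenchymal cells, measured 9.30, 9.25 and 9.06 in KMH2 control, 9.17, 9.33 and 9.35 after glucosamine, and 5.08 and 4.57 in Ramos. The KMH2 groups overlapped, and Ramos lay far below both. Ramos differed from KMH2 control by -4.38 ± 0.15 (SE, adjusted p = 8.80e-08), 20.8-fold. The order of DDR2 and PDGFRA by this difference was not settled: with the mean of a gene's probe sets DDR2 gave -3.47 and PDGFRA -3.95, without Ramos replicate 2 they gave -4.13 and -4.18, and both lay under the table's median in Ramos. The glucosamine difference was 0.08 with a 95% confidence interval from -0.10 to 0.26 (adjusted p = 0.543). A second probe set of DDR2 (7906900) gave 7.22, 7.06 and 7.02 in KMH2 control, 7.01, 7.35 and 7.17 after glucosamine, and 4.72 and 4.35 in Ramos. It too was lower in Ramos, by a smaller log2 difference (-2.56, adjusted p = 1.45e-06), and did not pass after glucosamine. The profiles nearest to DDR2 were those of HOMER1 (0.09), a postsynaptic scaffold gene, SPATS2L (0.09) and TENM2 (0.11), a cell adhesion gene.

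DDR1 (8177867), the collagen receptor typical of epithelium, measured 7.69, 7.76 and 7.83 in KMH2 control, 7.55, 7.48 and 7.60 after glucosamine, and 6.96 and 6.65 in Ramos. The groups did not overlap, and the ranges of control and treated cells were separated by less than 0.1 on the log2 scale. The difference between the lines was -0.95 ± 0.10 (SE, adjusted p = 9.04e-05), 1.94-fold. The fall after glucosamine was slight (-0.21 ± 0.06, SE, adjusted p = 0.0328). It no longer passed when control array 2 (adjusted p = 0.0964) or 3 (0.114) or glucosamine array 2 (0.101) or 3 (0.0504) was left out, nor with quantile normalization (0.0643), all probe sets of the table (0.0612) or all 8 arrays in the fit (0.173). The other 2 of its 3 probe sets gave -0.22 (adjusted p = 0.0289) and -0.21 (0.0370) after glucosamine. The 3 probe sets share annotated transcripts, so they are not independent evidence. The profiles nearest to DDR1 were those of ISOC1 and TDP1 (both 0.04) and VPS29 (0.06). Of 7 epithelial markers 0 passed after glucosamine and 2 were higher in Ramos, KRT8 (0.36, a call lost with array weights at 0.0958) and CLDN4 (0.54), while the log2 of their summed signal was 8.25 to 8.40 in KMH2 control, 8.25 to 8.30 after glucosamine and 8.41 to 8.42 in Ramos.

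EPHB1 (8090891), an ephrin receptor of cell contact, measured 6.51, 6.41 and 6.26 in KMH2 control, 6.71, 6.53 and 6.60 after glucosamine, and 6.72 and 6.91 in Ramos. The order ran from control through treated cells to Ramos with narrow gaps. The glucosamine difference of 0.22 ± 0.08 (SE) did not pass (adjusted p = 0.0787). It passed when the fit was blocked by replicate (0.0331), with array weights (0.0321), after dropping control array 1 (0.0467) or the pair of replicate 1 arrays (0.0449). Ramos lay higher by 0.42 ± 0.10 (SE, adjusted p = 0.00941), a call lost with array weights (0.0611) and against treated KMH2 cells (0.144). A second, dimmer probe set of EPHB1 (8082846) lay between 4.12 and 4.35 on all KMH2 arrays and at 5.02 and 6.02 in Ramos, a difference of 1.31 ± 0.24 (SE, adjusted p = 0.00231). Its Ramos arrays differed from each other by 1.00, beyond the 95th percentile of that difference over all probe sets (0.82).

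**Figure D2:**
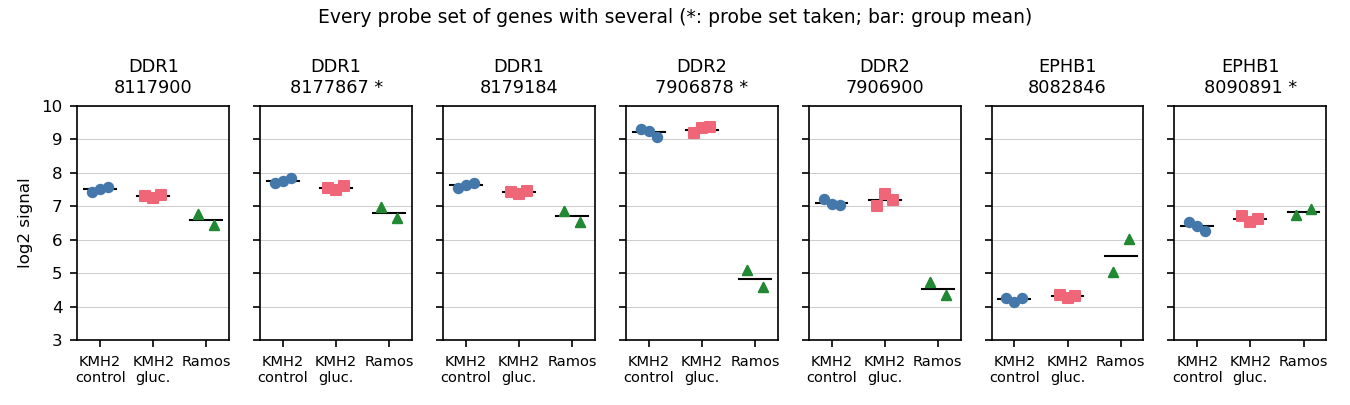
Log2 signal on each array for every probe set of DDR1, DDR2 and EPHB1, the members with more than 1 (asterisk, probe set taken; bars, group means; symbols as groups on the x axis). The 3 DDR1 probe sets and both DDR2 probe sets agree in the direction of the line difference, and the dimmer EPHB1 probe set has its Ramos arrays at 5.02 and 6.02.

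MET (8135601), the hepatocyte growth factor receptor, measured 8.70, 8.56 and 8.49 in KMH2 control, 8.22, 8.28 and 8.32 after glucosamine, and 7.75 and 8.48 in Ramos. Every treated array lay below every control. The fall was 0.31 (-0.31 ± 0.07, SE, adjusted p = 0.0102), 1.24-fold, and its call was lost when all 8 arrays shared the spread (0.275). The Ramos arrays differed by 0.72, the second of them just under the lowest control, and the line difference of -0.47 ± 0.18 (SE) did not pass (adjusted p = 0.0694). Without Ramos replicate 2 it was -0.83 (adjusted p = 0.000128), and without Ramos replicate 1 it was -0.11 (0.394), so that value rests on which Ramos array is used. MST1R (8087547), the relative of MET that binds macrophage-stimulating protein, measured 4.13, 4.31 and 4.30 in KMH2 control, 4.48, 4.0 and 4.18 after glucosamine, and 4.17 and 4.22 in Ramos. Its groups overlapped in both comparisons, with differences of -0.02 (95% confidence interval -0.30 to 0.25, adjusted p = 0.913, limma) and -0.05 (-0.36 to 0.25, adjusted p = 0.777, limma).

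**Figure D3:**
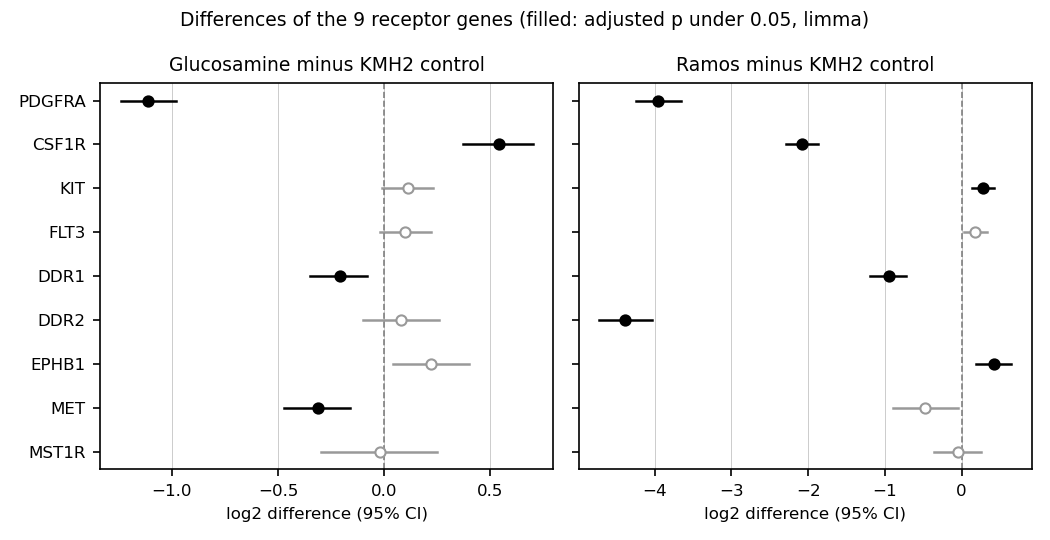
Log2 differences of the 9 receptor genes with 95% confidence intervals, for glucosamine minus KMH2 control (left) and Ramos minus KMH2 control (right), on separate scales; filled points have an adjusted p under 0.05 in limma. PDGFRA (-1.11) and CSF1R (0.54) stand apart on the left, and DDR2 (-4.38), PDGFRA (-3.95) and CSF1R (-2.08) on the right.

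Promoter sequence of the genes higher in KMH2 is shown because AP-1 and NF-kappaB activity is a known trait of Hodgkin cells and PU.1 and RUNX factors are known regulators of CSF1R. RefSeq (GRCh38.p14) held 20 windows of 300 bases for the 9 genes, each from 250 bases before a transcript start to 50 after. Each was searched on both strands for AP-1 (TGANTCA), the PU.1 core (GAGGAA), RUNX (TGTGGT), an E-box (CACGTG), the composite CEBP-ATF element (TGATGNAA), a TATA box (TATAAA) and the NF-kappaB consensus. Printed are the 4 windows with an AP-1 match, 1 per gene, and the other window of CSF1R for its PU.1 and RUNX matches, 5 of the 15 windows of these 4 genes. The choice was made after the search, and the rest are described by their matches only. The lines below give the bases before the start and the 30 from it on, 5′ to 3′ on the gene's strand, with every match in capitals.
PDGFRA chr4:54229043-54229322 (plus strand): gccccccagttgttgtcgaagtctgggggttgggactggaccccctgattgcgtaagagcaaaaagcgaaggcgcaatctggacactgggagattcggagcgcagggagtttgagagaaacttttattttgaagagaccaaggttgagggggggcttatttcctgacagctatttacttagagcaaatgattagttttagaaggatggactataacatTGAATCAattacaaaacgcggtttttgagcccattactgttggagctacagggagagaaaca
CSF1R chr5:150086525-150086804 (minus strand): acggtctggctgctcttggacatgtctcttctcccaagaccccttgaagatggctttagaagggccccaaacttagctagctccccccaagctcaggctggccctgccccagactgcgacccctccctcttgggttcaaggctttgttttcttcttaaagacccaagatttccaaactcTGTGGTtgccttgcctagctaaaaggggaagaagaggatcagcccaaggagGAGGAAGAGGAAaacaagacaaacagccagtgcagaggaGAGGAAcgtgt
CSF1R chr5:150113336-150113615 (minus strand): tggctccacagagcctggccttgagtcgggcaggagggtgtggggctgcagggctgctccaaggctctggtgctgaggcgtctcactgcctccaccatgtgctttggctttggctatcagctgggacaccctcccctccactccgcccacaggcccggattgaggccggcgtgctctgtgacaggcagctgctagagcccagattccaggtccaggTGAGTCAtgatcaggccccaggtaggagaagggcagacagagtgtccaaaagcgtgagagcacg
DDR1 chr6:30888438-30888717 (plus strand): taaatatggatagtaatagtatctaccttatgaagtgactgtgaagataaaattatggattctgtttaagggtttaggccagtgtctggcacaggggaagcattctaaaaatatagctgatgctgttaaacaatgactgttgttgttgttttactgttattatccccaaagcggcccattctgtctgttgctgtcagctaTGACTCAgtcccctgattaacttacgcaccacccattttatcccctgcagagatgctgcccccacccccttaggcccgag
DDR2 chr1:162630613-162630892 (plus strand): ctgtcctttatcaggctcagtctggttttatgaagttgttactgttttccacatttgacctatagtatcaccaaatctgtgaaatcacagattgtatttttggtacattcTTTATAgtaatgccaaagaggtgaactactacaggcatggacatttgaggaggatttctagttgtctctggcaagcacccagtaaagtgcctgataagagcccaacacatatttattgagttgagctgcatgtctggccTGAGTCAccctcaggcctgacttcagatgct
An AP-1 match lay in 1 window each of PDGFRA, CSF1R, DDR1 and DDR2 and in 0 windows of the other 5 genes. That was 4 of 20 windows, and 7.71% of all 35116 windows in RefSeq's set held 1. These 4 genes own 15 of the 20 windows, so they also had more chances to match. The search allowed any base at the centre of the site. PDGFRA has an A there and the others a C or G, so PDGFRA matches only with that allowance. The matches began 32 bases before the start in PDGFRA (TGAATCA), 34 before in the upstream window of CSF1R (TGAGTCA), 50 before in DDR1 (TGACTCA) and 1 before in DDR2 (TGAGTCA), positions -32, -34, -50 and -1 with the start base as 0. The PU.1 core occurred in 27.9% of all windows, in 9 of the 20, and 3 times in the downstream window of CSF1R, whose RUNX match (13.1% of all windows) began at -71. NF-kappaB matches lay in 4 windows, of DDR1, FLT3 and EPHB1 (5.91% of all windows). E-boxes lay in 2 windows, of FLT3 and MET (7.26%). The composite element lay in 1 window of DDR2 (3.62%). Matches to the TATA box letters lay in 2 windows of DDR2 (11.5%), beginning at -140 (TTTATA, on the opposite strand) and -187 (TATAAA). A match describes letters only, and the arrays do not show which start was used. Whether the upstream window of CSF1R lies in the retroviral repeat named above was not examined.

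The genes of the members' ligands were then read, as far as 19 of 19 listed ligand genes were measured. After glucosamine 0 of the 19 passed the limma test (25.8% of all probe sets did). Between the lines 7 were lower in Ramos, 2 were higher and 10 did not pass, with a median difference of 0.06, beside 43.8% of all probe sets that passed. The 2 higher calls, MST1 (0.0714) and PDGFC (0.0877), were lost when only the KMH2 control and Ramos arrays were fitted. PDGFA, a ligand of PDGFRA, measured 8.15 ± 0.03 in untreated and 8.23 ± 0.06 in treated KMH2 cells (SD, n = 3 per group), a difference of 0.07 with a 95% confidence interval from -0.05 to 0.20. In Ramos it lay at 4.46 and 4.85, lower by a log2 difference of -3.50 ± 0.11 (SE, adjusted p = 5.06e-08), 11.3-fold. CSF1, a ligand of CSF1R, measured 8.29 ± 0.06 and 8.31 ± 0.08 in the KMH2 groups (SD, n = 3 per group; interval of the difference -0.12 to 0.17) and 6.39 and 6.41 in Ramos (-1.89, adjusted p = 1.88e-07). PDGFRA with PDGFA and CSF1R with CSF1 were thus each higher in KMH2 than in Ramos, and only the receptor gene of each pair passed after glucosamine. PDGFC, also a ligand of PDGFRA, went the other way, slightly higher in Ramos (0.17, adjusted p = 0.0436, limma), a call lost in 10 of 14 alternatives. PDGFB and IL34, the other listed ligands of these receptors, passed in neither comparison. The difference between receptor and ligand was not tested.

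EFNB1, a ligand of EPHB1, was lower in Ramos by a log2 difference of -0.99 (7.39 ± 0.12, SD, n = 3, in KMH2 control, adjusted p = 2.20e-05). HGF, the ligand of MET, was chosen after its values were seen. It measured 6.58 ± 0.16 in untreated and 6.71 ± 0.47 in treated KMH2 cells (SD, n = 3 per group), and 4.18 and 4.27 in Ramos (-2.35 ± 0.24, SE, adjusted p = 6.92e-05). The MET signal was thus bright in both lines, and the HGF signal stood above the table's median in KMH2 only. Among ligands with the smallest p after glucosamine, none passed: EFNB2 differed by 0.16 (adjusted p = 0.0527), COL1A1 by -0.14 (0.111) and COL4A1 by -0.31 (0.187). EFNB2 passed without dim probe sets (0.0342) and with array weights (0.0403), COL1A1 with array weights (0.0284), and COL4A1 with a replicate block (0.00534). COL1A1 (0.0335) and COL4A1 (0.0155) also passed without both replicate 1 arrays.

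**Figure D4:**
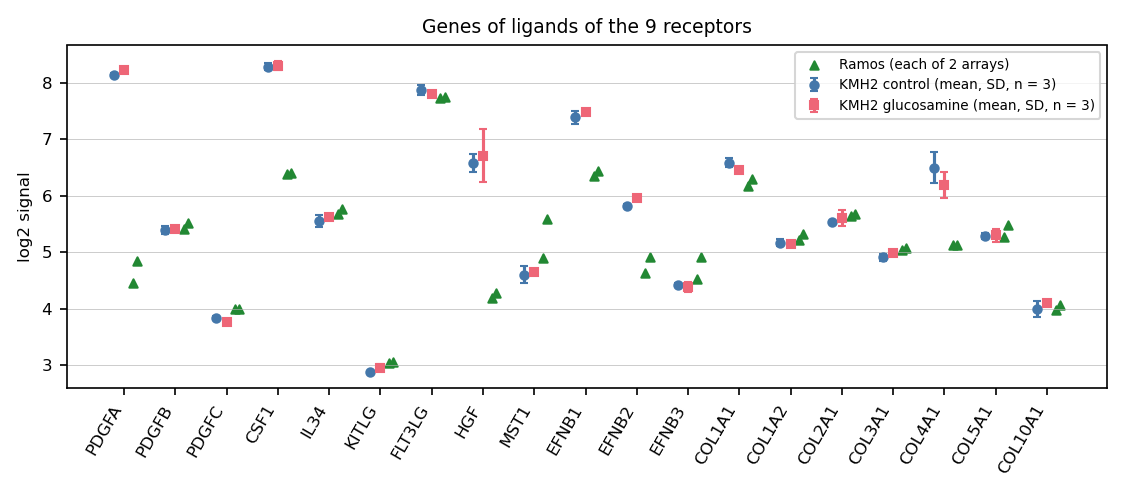
Log2 signal of the genes of 19 ligands of the 9 receptors: KMH2 control and KMH2 glucosamine as mean ± SD (n = 3 each) and Ramos as both arrays. PDGFA, CSF1 and HGF are lower in Ramos, and the KMH2 groups lie close together for PDGFA (8.15 and 8.23) and CSF1 (8.29 and 8.31).

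Among 11 measured genes of proteases and inhibitors that act on these ligands and receptors, 4 rose, 2 fell and 5 did not pass after glucosamine. Their median was 0.05 (0.01 over all probe sets), and 25.8% of all probe sets passed. PLAT, tissue plasminogen activator, which can activate PDGF-C, fell from 10.30 ± 0.04 to 9.36 ± 0.10 (SD, n = 3 per group; -0.94, adjusted p = 7.65e-05). ADAM17, a sheddase that cleaves CSF1R from the surface, rose by 0.78 ± 0.06 (SE, adjusted p = 9.72e-05), and SPINT2, an inhibitor of HGF-activating proteases, rose by 0.41 (adjusted p = 0.00500). The ADAM17 call was lost when all 8 arrays shared the spread (0.0543). Between the lines 4 were higher in Ramos, 4 lower and 3 did not pass (median 0.03), beside 43.8% of all probe sets that passed. PLAT lay at 5.14 and 5.36 in Ramos (-5.05, adjusted p = 2.38e-09), FURIN, which cleaves growth factor precursors, was lower by a log2 difference of -1.28 (6.83e-06), and SPINT2 was higher by 1.57 (2.28e-06).

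Of 39 adaptors and kinases of the signal relay 29 were measured on a probe set of their own, and the other 10 were not analysed here. After glucosamine 5 rose, 7 fell and 17 did not pass (median -0.02), beside 25.8% of all probe sets that passed. The 12 calls became 6 without control replicate 2, 7 without control replicate 3 or glucosamine replicate 3, and 3 with all 8 arrays in the fit. They became 15 with a replicate block and 17 with array weights. PIK3R1, the regulatory subunit of PI3 kinase that docks on activated receptors, fell by 0.62 (-0.62 ± 0.07, SE, adjusted p = 0.000433). The SRC-family kinase gene FYN rose by 0.83 (0.000720) and the adaptor gene NCK1 by 0.47 (0.00109), the latter call being lost with all 8 arrays in the fit (0.0917). Between the lines 6 were higher in Ramos, 7 lower and 16 did not pass (median 0.12), beside 43.8% of all probe sets that passed. These 13 calls became 9 with array weights or without control replicate 2, and 15 of 28 without dim probe sets. STAT5A, a transcription factor downstream of class III receptors, measured 9.33 ± 0.06 in KMH2 control (SD, n = 3) and 5.47 and 5.59 in Ramos (-3.80, adjusted p = 4.49e-09). The docking protein gene GAB2 was lower in Ramos (-1.90, adjusted p = 1.37e-05), and the adaptor gene GRB2 was higher (1.25, adjusted p = 1.20e-05).

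Inhibitors of receptor signalling went both ways. Of 14 measured, 3 rose, 3 fell and 8 did not pass after glucosamine (median 0.02), beside 25.8% of all probe sets that passed. CBLB, a ubiquitin ligase for activated receptors, was up by 0.56 (adjusted p = 0.00298), the phosphatase gene PTPN12 up by 0.40 (0.00251) and SOCS2 at -0.31 (0.00334). The 6 calls became 3 without glucosamine replicate 2 or without glucosamine replicate 3, 3 with all probe sets of the table, and 1 with all 8 arrays in the fit. In that last fit CBLB (0.170) and PTPN12 (0.0668) lost their calls. Between the lines 5 were higher in Ramos, 3 lower and 6 did not pass (median 0.07), beside 43.8% of all probe sets that passed. SOCS2, a feedback inhibitor induced by STAT5, measured 9.70 ± 0.05 in KMH2 control (SD, n = 3) and 5.52 and 5.72 in Ramos (-4.09, adjusted p = 3.19e-09). CBLB was higher in Ramos by 3.40 (1.24e-05), as was PTPN6, the phosphatase SHP-1, by 3.20 (0.000917), with its Ramos arrays far apart at 8.25 and 10.38.

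Of 21 measured genes that respond to ERK signalling, 2 rose, 2 fell and 17 did not pass after glucosamine (median 0.05), beside 25.8% of all probe sets that passed. The 4 calls became 1 without control replicate 2 or with all 8 arrays in the fit, 2 without control replicate 3 or glucosamine replicate 3, and 7 with array weights. The ERK phosphatase gene DUSP4 fell by 0.51 (-0.51 ± 0.11, SE, adjusted p = 0.00978), IER2 fell by 0.31 (adjusted p = 0.0175) and PHLDA1 rose by 0.25 (adjusted p = 0.0221). With all 8 arrays in the fit IER2 (0.137) and PHLDA1 (0.0529) lost their calls. IER2 also lost it with quantile normalization (0.0539) and without control replicate 1 (0.0607) or 2 (0.0529), and PHLDA1 without control replicate 2 (0.0737) or 3 (0.0810) or glucosamine replicate 3 (0.0647). Between the lines 5 were higher in Ramos, 7 lower and 9 did not pass (median 0.02), beside 43.8% of all probe sets that passed. The ERK inhibitor gene SPRY4 (-1.27, adjusted p = 2.32e-06) and IER3 (-2.54, 3.46e-06) were lower in Ramos, and EGR1, an immediate early gene, was higher (2.77, 2.30e-06).

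The other human receptor tyrosine kinases give the members their setting, and 46 of 49 were measured. After glucosamine 1 rose, 1 fell and 44 did not pass (median 0.00), beside 25.8% of all probe sets that passed. These 2 calls became between 0 and 4 with 1 array left out, 0 with all 8 arrays in the fit, 4 with a replicate block and 5 with array weights. FGFR1, a fibroblast growth factor receptor, fell by 0.22 (-0.22, adjusted p = 0.0226) and IGF1R rose by 0.27 (0.0460). FGFR1 lost its call with all 8 arrays in the fit (0.0529) and without control replicate 1 (0.0745) or 2 (0.0805) or glucosamine replicate 2 (0.0734) or 3 (0.0525). IGF1R lost its call with all 8 arrays (0.523), centring (0.0620) or all probe sets of the table (0.0908), and without control replicate 1 (0.106), 2 (0.0655) or 3 (0.151) or glucosamine replicate 2 (0.136) or 3 (0.145). LTK did not pass (0.19, adjusted p = 0.0857). Of all 55 measured receptor tyrosine kinases, members included, PDGFRA was the 1 that fell by at least 2-fold, and 0 rose by that much. Of the 46 others, 30 lay under the table's median in KMH2 control, where signals may be background and a fall could be hidden.

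Between the lines 11 of the 46 were lower in Ramos, 3 were higher and 32 did not pass (median 0.00), beside 43.8% of all probe sets that passed. Of all 55, 13 were lower in Ramos by at least 2-fold, PDGFRA, CSF1R and DDR2 among them, and 2 were higher by that much, beside 14.9% of all probe sets in either direction. FGFR1 (-2.58, adjusted p = 1.81e-08), TYRO3, a receptor of the TAM family (-2.60, 2.52e-08), and NTRK2, the neurotrophin receptor TRKB (-1.81, 3.98e-07), were lower in Ramos. NTRK2, a receptor reported in Hodgkin tumour cells, measured 6.48 ± 0.10 in KMH2 control, 6.41 ± 0.06 after glucosamine (SD, n = 3 per group) and 4.66 and 4.68 in Ramos. PDGFRB, the closest relative of PDGFRA, stayed between 5.06 and 5.23 across the Ramos arrays and KMH2 group means.

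**Figure D5:**
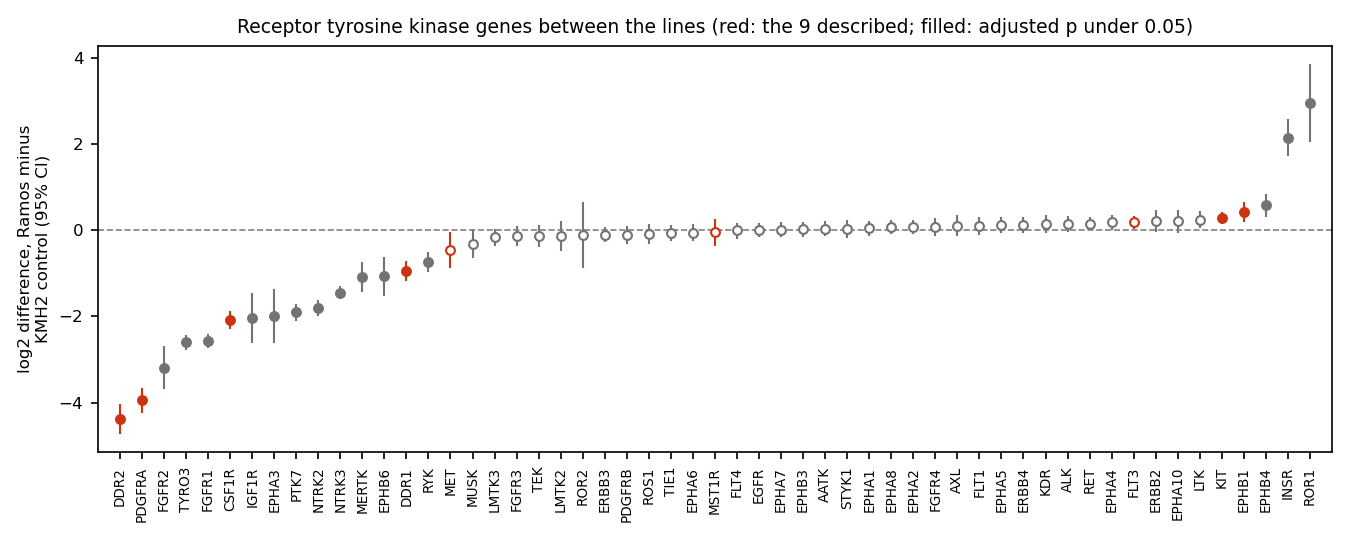
Log2 difference between Ramos and KMH2 control, with 95% confidence intervals, for 55 receptor tyrosine kinase genes in order of the difference; red marks the 9 described genes and filled points have an adjusted p under 0.05 in limma. DDR2 (-4.38) and PDGFRA (-3.95) lie at the low end, most genes lie near 0, and ROR1 (2.95) lies at the high end. Of the 46 genes outside the 9 described, 30 lie under the table's median in KMH2 control.

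Transcription factors that govern myeloid and progenitor receptor genes were read last (19 of 21 measured). After glucosamine 4 rose, 2 fell and 13 did not pass (median 0.07), beside 25.8% of all probe sets that passed. The 6 calls became 10 with a replicate block or with array weights. CEBPB, a myeloid and stress-induced factor, rose by 0.80 ± 0.06 (SE, adjusted p = 8.84e-05), ETS2 by 0.53 (0.000435) and RUNX1, a known regulator of CSF1R, by 0.54 (0.000648). SPI1, which encodes PU.1 and was chosen after its values were seen, measured 6.04 ± 0.15 (SD, n = 3) in control cells and 5.97 ± 0.21 (SD, n = 3) with glucosamine. Between the lines 6 were higher in Ramos, 6 lower and 7 did not pass (median 0.19), beside 43.8% of all probe sets that passed. MITF (-2.19, adjusted p = 9.34e-08) and IRF5 (-1.56, 1.34e-06) were lower in Ramos, and PAX5, the B-lineage factor, was higher (2.95, 1.15e-07). SPI1 was higher in Ramos, at 7.68 and 7.98 (1.79, adjusted p = 1.98e-05), the opposite of CSF1R.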

How the data were processed

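Total RNA was amplified, end-labelled as cDNA and hybridised to Affymetrix HuGene-1_1-st-v1 array strips, per the labels' protocols. The deposited values are log2 signals for 33297 probe sets on 8 arrays, a unit read from their range (1.94 to 13.21). No source used here states the authors' summarization, background correction or normalization. Of the probe sets 19181 had 1 gene symbol in the 2016 platform annotation and were tested, 2055 had several and 12061 had none. Their Entrez identifiers matched the RefSeq table in 19143 cases. Arrays were compared with limma 3.58.1 in R 4.3.3 (lmFit, eBayes), which gave all standard errors, intervals and adjusted p-values. The glucosamine fit used the 6 KMH2 arrays. The line fit used 8 arrays in 3 groups that shared the spread. The script was tested on simulated data.

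Same-numbered KMH2 arrays deviated together (correlations 0.46, 0.23 and 0.23), each over 0.1, so the fit with a replicate block was taken as a paired alternative. Differently numbered arrays ranged from -0.37 to 0.25, so replicates 2 and 3 were not told apart by this check. The design text calls the KMH2 replicates biological. No 2 arrays were identical. For arrays their number limits the precision.

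The members, lists (7 pathway, 8 marker) and motifs were chosen with earlier results of these data known. Named were all members, the 3 genes of each pathway list with the smallest p per comparison, NTRK2, the marker genes past the threshold that bear on a member, and the 3 nearest profiles of members whose range exceeded 1. Other named genes are said to be chosen after their values were seen, or serve as markers or relatives. Alternatives were normalization, centring, dim probe sets, probe sets tested or averaged, trend, array weights, samples, pairing and left-out arrays.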

Additional observations from a re-analysis of the deposited data

How the results depend on the processing

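Each comparison was rerun under alternatives, 16 for glucosamine and 15 for the lines. PDGFRA and CSF1R kept direction and call in both comparisons, as DDR1 and DDR2 did between the lines. After glucosamine PDGFRA ran from -1.15 to -1.08 and CSF1R from 0.49 to 0.60. The count of members called after glucosamine was 4, ran from 3 to 5 with 1 array left out, and was 2 (PDGFRA and CSF1R) when all 8 arrays shared the spread, where 2177 probe sets passed instead of 4956. With 1 array left out that second count ran from 3600 to 5304. Between the lines the count of members was 6 and ran from 6 to 7 with 1 array left out, and that of probe sets was 8408 and ran from 7035 to 9349. A lone Ramos array was then assumed to vary like the other groups. The block of shared replicate numbers 1 and 2 between KMH2 control and Ramos, which share only a number, gave 4580 probe sets and lost KIT (0.173) and EPHB1 (0.156). That fit held 4 arrays, and the cause was not tested further. The replicate block in the KMH2 arrays gave 5748 probe sets and changed no other member's call than that of EPHB1. MST1R after glucosamine ran from -0.16 to 0.08 with 1 array left out and turned sign without control replicate 2 (0.01) or 3 (0.00) or glucosamine replicate 2 (0.08), with no call. KIT, FLT3 and MST1R have no value without dim probe sets. Of 142 calls of list genes 50 were lost in at least 1 alternative, and 3 changed sign, PIK3R1, MMP14 and ADAM17 against treated KMH2 cells. Calls were counted per list, so COL1A1 between the lines counts both as a fibroblast marker and as a ligand. Unknown background limits what low signals can show.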

Other observations

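Among markers of other cell types read beside the receptors, the CD3 chain genes CD3D and CD3G of the 4 T-cell markers were bright in the Hodgkin line. CD3D measured 8.19 in KMH2 control, 8.03 after glucosamine and at most 5.77 in Ramos (-2.50, adjusted p = 8.48e-08, limma), and CD3G measured 7.92, 7.32 and at most 5.50 (-2.67, adjusted p = 9.76e-05, limma). CD3E and CD2 of the same list lay under the table's median in every group, at 4.17 and 4.65 in KMH2 control. Neither gene passed after glucosamine (CD3G -0.60, adjusted p = 0.0978, CD3D -0.16, adjusted p = 0.111, limma). CD3G passed with a replicate block (0.000633), after dropping control array 1 (0.0426) or the pair of replicate 1 arrays (0.00133), and its adjusted p reached 0.273 at the highest.

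Of 7 Hodgkin markers 6 fell after glucosamine, with a median of -0.34 (0.01 over all probe sets, of which 13.9% were lower). With all 8 arrays in the fit 3 of the 6 calls were lost, IRF4 (0.0502), FSCN1 (0.132) and TRAF1 (0.352), and with 1 array left out the count ran from 4 to 6. FSCN1 and TRAF1 lost their calls without control replicate 1 or 2 and without glucosamine replicate 2 or 3. GATA3, a T-cell factor misexpressed in Hodgkin cells, fell by 1.04 (-1.04 ± 0.06, SE, adjusted p = 2.74e-05, limma) and TNFRSF8 by 0.73 (-0.73, adjusted p = 0.000232, limma). Of the 3 members at least 2-fold higher in KMH2 than in Ramos, PDGFRA fell, CSF1R rose and DDR2 did not pass. These lists were chosen with earlier results of the same arrays known, and a link between the genes was not tested.

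The Ramos arrays differed from each other by a median of 0.16 over all probe sets. Among the members the gap was 0.72 for MET, 0.51 for DDR2 and 0.47 for PDGFRA, and 0.01 for KIT. For the phosphatase gene PTPN6 the arrays lay at 8.25 and 10.38. The sources used here do not say which of the pair, if either, was treated. Over the probe sets paired with 1 symbol, Ramos 1 correlated at 0.8926 to 0.8958 with the KMH2 controls and 0.8864 to 0.8899 with the treated arrays. For Ramos 2 the values were 0.8834 to 0.8863 with the controls and 0.8873 to 0.8902 with the treated arrays. A link of these values to treatment was not tested.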
